A study of Mus musculus with 6 samples.

Results

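Oxidative phosphorylation (OXPHOS) genes encode the protein subunits of the respiratory chain and of ATP synthase. They were taken here as the protein-coding genes of the count table whose symbols begin with Nduf followed by a, b, c, s or v, with Cox4 to Cox8, with Uqcr, with Atp5 or with mt-, together with Sdha to Sdhd and Cyc1. This rule used symbols and gene type, not expression, and found 111 of the 55565 genes listed, 98 of them nuclear and 13 in the mitochondrial genome. Complex I held 38 nuclear and 7 mitochondrial genes, with 8 Ndufaf genes for its assembly counted apart. Complex II held 4 nuclear genes, complex III 9 nuclear genes and 1 mitochondrial gene, complex IV 21 and 3, and ATP synthase (complex V) 18 and 2.

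Complexes I and II pass electrons from NADH and succinate to coenzyme Q, complex III passes them on to cytochrome c, and complex IV hands them to oxygen. Complexes I, III and IV pump protons across the inner mitochondrial membrane, and ATP synthase uses the returning protons to make ATP. Subunits of every complex except complex II are encoded in both genomes, and mitochondrial genes are transcribed as long precursors by their own polymerase rather than by RNA polymerase II.

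RNA was sequenced from mouse embryonic fibroblasts (MEFs), with 3 libraries from wild-type (WT) cells and 3 from Mcm8 knockout (KO) cells. Mcm8 encodes a helicase of the minichromosome maintenance family that acts in homologous recombination, and the comparison asked how its loss alters the transcriptome. Both genotypes came from crosses between Mcm8+/- mice of mixed C57BL/6J x ICR descent, and KO cells carried a CRISPR-Cas9 deletion of Mcm8 exon 7. Cells were grown from E13.5 embryos without head, tail, limbs, heart and liver, in DMEM with fetal bovine serum, and both genotypes were immortalised by a lentivirus carrying the SV40 gene SV40gp6 and selected with puromycin. The methods call the 3 libraries biological repeats but do not say whether separate embryos or cultures gave them, so the p-values measure the spread between these libraries, which may be technical.

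The libraries held 12722979 to 21022755 counts. Mcm8, reported first as a check of the labels, was at 13.8, 16.6 and 12.8 CPM (read counts scaled to library size with the trimmed mean of M-values) in WT 1 to 3 and at 4.20, 4.45 and 4.12 in KO 1 to 3, so no KO library reached the lowest WT library (log2 fold change -1.75 ± 0.16 SE, edgeR adjusted p = 4.45e-26). The 10 fibroblast markers summed to 24650 to 29130 CPM in WT and 28610 to 29450 CPM in KO, but 3 were called higher and 3 lower, among them Thy1 (KO at 49.1% of WT) and Pdgfrb (59.9%). Krt18 of the epithelial list rose (0.627, 0.285 and 0.805 CPM in WT against 5.15, 3.85 and 4.68 in KO), the 6 epithelial markers summed to 0.927 to 1.45 CPM in WT and 5.95 to 7.24 CPM in KO, and the 6 mesothelial markers to 6.42 to 7.37 CPM and 49.3 to 56.0 CPM. Most of the mesothelial sum in KO was Msln (2.74 to 3.07 CPM in WT and 43.1 to 48.3 CPM in KO), Krt19 also rose, Wt1 was not called, Upk1b and Upk3b held 0 to 3 counts and Lrrn4 was at 0 throughout. Xist stood at 940 to 1359 CPM in WT and 474 to 494 CPM in KO, and Y-linked Ddx3y at 6.77 to 8.70 CPM and 38.7 to 48.7 CPM, so the genotypes also differed in the sexes of their cells. The part of cell makeup or sex in the differences below was not tested, and in bulk RNA fewer cells of a type cannot be told apart from less RNA per cell.

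Most OXPHOS genes did not pass the test between genotypes, and the calls that did pass were spread over complexes I, III, IV and V, with 5 among the 7 mitochondrial genes of complex I. Of 111 OXPHOS genes, 107 were tested and 5 were higher and 8 lower in KO at an adjusted p below 0.05. Over all 26898 genes tested, 4.97% were higher and 4.03% lower, and over the 14332 genes with enough counts for filterByExpr, a count filter of edgeR that 100 OXPHOS genes passed, 8.9% were higher and 7.4% lower in the same fit. Among the 94 nuclear genes tested, 3 were higher and 3 lower, and the median log2 fold change was 0.01, as it was over all genes tested (0.01). Among the 13 mitochondrial genes, 2 were higher and 5 lower, with a median of -0.21. Of all OXPHOS genes tested, DESeq2 called 6 and limma voom 7, and 33 had an unadjusted p below 0.05 by edgeR. Over all genes passing filterByExpr these shares were 12.1%, 14.5% and 29.8%. KO lay above WT without overlap in 7 and below in 16 of the 100 genes passing the filter, beside 16.9% and 16.3% of all such genes. With offsets for gene length the calls were 5 higher and 16 lower in place of 5 and 8. Single libraries moved them further, to 28 higher and 8 lower without WT 1 and to 2 higher and 14 lower without WT 2. At the study's threshold of 2-fold, which 2.42% of all genes tested passed, only Ndufa12 qualified in this fit.

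**Figure D1:**
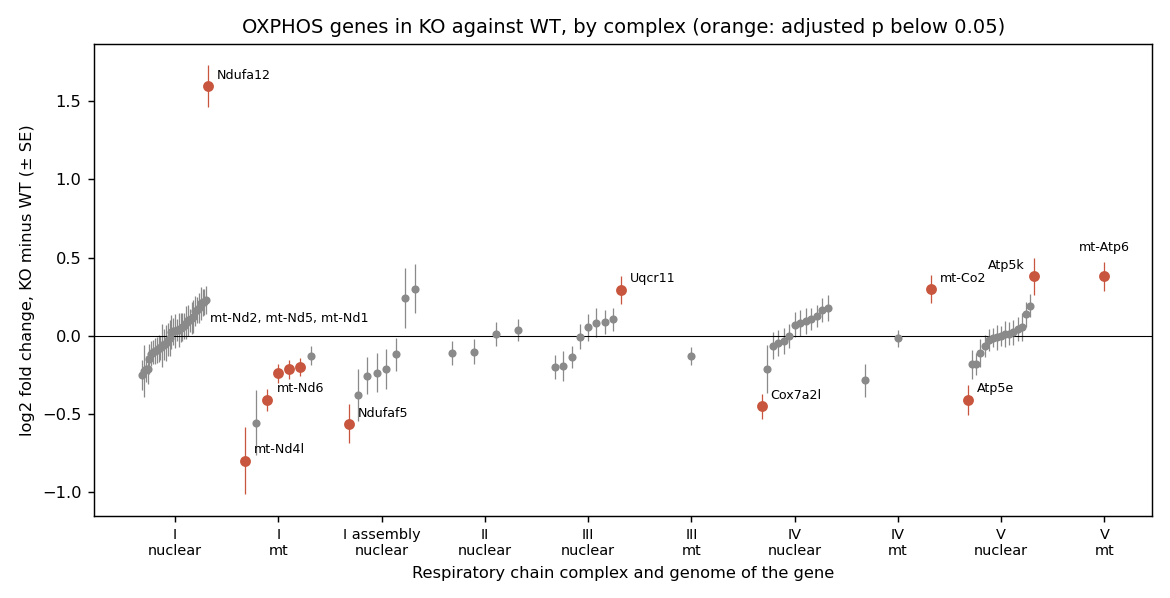
Fitted log2 fold change of KO against WT (vertical axis, bars ± SE) for the 100 OXPHOS genes that passed filterByExpr, by complex and genome. Orange points passed an adjusted p below 0.05, and the 7 mitochondrial genes of complex I all lie below 0.

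All 7 mitochondrial genes of complex I had a fold change below 0 (mt-Nd3 turned to 0.09 without WT 3) and 5 of them were called lower, whereas among 37 tested nuclear complex I genes 1 was called higher and none lower (8 at an unadjusted p below 0.05, and none lower by DESeq2 or limma voom). DESeq2 and limma voom each called 3 of the 7 lower, mt-Nd2, mt-Nd5 and mt-Nd6, and 2 to 5 were called with 1 library left out. The nuclear count ranged from 1 to 11 in the same way, with 11 without WT 1, and the difference between the nuclear and mitochondrial genes was not tested. These 7 genes encode the membrane-bound ND subunits that form the proton channels of the complex. Their summed level was 6303, 5983 and 5772 CPM in WT 1 to 3 and 5221, 5364 and 5066 CPM in KO 1 to 3. Every KO library lay below every WT library in this sum. The same held for the sum over all 13 mitochondrial genes, these 7 included. That sum was 14450, 14070 and 13370 CPM in WT and 12940, 13280 and 12550 CPM in KO. mt-Cytb of complex III likewise lay below WT without overlap, though it was not called. mt-Nd3, mt-Nd4l and part of mt-Nd4 lie in a stretch copied on chromosome 1, as given below. The separate genes follow.

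mt-Nd6, the ND subunit encoded on the opposite strand from the other 12 mitochondrial protein genes, was at 273, 268 and 243 CPM in WT 1 to 3 and at 181, 206 and 205 CPM in KO 1 to 3. The genotypes did not overlap, and KO averaged 75.4% of WT (log2 fold change -0.41 ± 0.07 SE, edgeR adjusted p = 2.41e-07). Its 3′ end shares positions with that of mt-Nd5 on the other strand, and no source states that reads were counted by strand. mt-Nd2 was at 1188, 1086 and 1026 CPM in WT and at 947, 952 and 896 CPM in KO. It fell in KO without overlap (log2 fold change -0.24 ± 0.06 SE, edgeR adjusted p = 0.00241).

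mt-Nd5 was at 1384, 1584 and 1512 CPM in WT and at 1281, 1311 and 1273 CPM in KO. It too fell without overlap (-0.21 ± 0.06 SE, edgeR adjusted p = 0.00743), and here WT 1, the highest WT library for mt-Nd1 and mt-Nd2, was the lowest. mt-Nd1 was at 2388, 2091 and 2007 CPM in WT and at 1907, 1957 and 1786 CPM in KO. It fell by 0.20 ± 0.06 SE on the log2 scale (edgeR adjusted p = 0.0115), but DESeq2 gave an adjusted p of 0.0558, and its fitted fall was 0.12 without WT 1. The call of mt-Nd5 was lost without WT 2, KO 1 or KO 3, that of mt-Nd1 without KO 1 or KO 3, and that of mt-Nd2 without KO 3, although each gene's direction was kept.

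mt-Cytb, the one mitochondrial subunit of complex III, was at 2431, 2247 and 2205 CPM in WT and at 2142, 2129 and 2034 CPM in KO. The genotypes did not overlap, yet the difference did not pass the test (-0.13 ± 0.06 SE, edgeR adjusted p = 0.204). mt-Co1, the catalytic core of complex IV and the most abundant mitochondrial protein gene per length (3581 ± 164 SD FPKM in WT, n = 3), was at 5606, 5749 and 5305 CPM in WT and at 5481, 5646 and 5361 CPM in KO. Its genotypes overlapped and its log2 fold change was -0.015 ± 0.05 SE (edgeR adjusted p = 0.915).

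The same libraries gave unequal differences along one genome, which a ratio within each library shows without any scaling between libraries. mt-Nd2 stood at 21.2%, 18.9% and 19.3% of mt-Co1 in WT 1 to 3 and at 17.3%, 16.9% and 16.7% in KO 1 to 3. mt-Nd6 stood at 4.87%, 4.67% and 4.59% of mt-Co1 in WT and at 3.31%, 3.65% and 3.82% in KO. mt-Nd1 stood at 42.6%, 36.4% and 37.8% in WT and at 34.8%, 34.7% and 33.3% in KO, and mt-Nd5 at 24.7%, 27.6% and 28.5% against 23.4%, 23.2% and 23.7%. All KO libraries were below all WT libraries in these 4 ratios, which were chosen after the values were seen and carry no test. Their denominator, mt-Co1, had a log2 fold change of -0.015, and 31.3% of it aligns to a chromosome 1 copy described below. mt-Cytb overlapped on this scale, at 43.4%, 39.1% and 41.6% of mt-Co1 in WT and at 39.1%, 37.7% and 38.0% in KO.

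The ribosomal RNAs of the mitochondrial genome, which are not protein genes and lie upstream of mt-Nd1, were also lower. mt-Rnr2 was at 420, 432 and 376 CPM in WT and at 291, 296 and 269 CPM in KO (log2 fold change -0.52 ± 0.07 SE, edgeR adjusted p = 1.26e-12). mt-Rnr1 was at 120, 108 and 93.0 CPM in WT and at 91.9, 84.2 and 81.9 CPM in KO (-0.31 ± 0.08 SE, edgeR adjusted p = 0.000964). Both lay below WT without overlap. The share of rRNA that a library keeps depends on how it was prepared.

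The other mitochondrial genes could not be read in the same way, because a stretch of chromosome 1 carries nearly the same letters. The GENCODE annotation of GRCm38 places 7 unprocessed copies there, from Gm28439 at 24611535 to Gm29216 at 24616197, on the minus strand. Transcripts of Gm28661, Gm10925, Gm28437, Gm10222 and Gm28439 matched mt-Co2, mt-Atp6, mt-Co3, mt-Nd4l and mt-Nd4 over 681, 678, 783, 294 and 876 bases with 0 mismatches. Gm28438 differed from mt-Nd3 at 1 of 345 bases and Gm29216 from the last 483 bases of mt-Co1 at 1 base. The aligned part was 63.6% of mt-Nd4 and 31.3% of mt-Co1, and nearly all of the other 5. mt-Atp8, which was not aligned, lies between mt-Co2 and mt-Atp6 and overlaps the latter. The first 120 bases of mt-Co2, shown because they are the same letters in both places, and those of mt-Nd3 and its copy, with the substitution T3C (counted from 1 at the first base of mt-Nd3) in capitals, are as follows.
mt-Co2 and Gm28661: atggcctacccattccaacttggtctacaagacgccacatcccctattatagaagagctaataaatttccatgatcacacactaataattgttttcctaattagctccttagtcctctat
mt-Nd3: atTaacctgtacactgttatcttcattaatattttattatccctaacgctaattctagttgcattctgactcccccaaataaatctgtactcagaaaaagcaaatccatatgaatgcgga
Gm28438: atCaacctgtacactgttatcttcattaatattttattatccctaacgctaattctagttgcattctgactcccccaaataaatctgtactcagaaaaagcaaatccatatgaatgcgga
In mt-Co2, mt-Atp6, mt-Co3, mt-Nd4l and the aligned part of mt-Nd4, no base tells the mitochondrial gene from its copy, and in mt-Nd3 and the aligned part of mt-Co1 a single base does.

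Levels per length were set apart by this stretch. The 5 genes outside the stretch stood at 502 to 2251 FPKM in WT, and mt-Co1 and mt-Nd4, which are copied in part, at 3581 ± 164 and 717 ± 44.8 SD FPKM. The 6 genes wholly inside it were far lower, with WT means from 2.41 FPKM for mt-Atp8 to 56.3 FPKM for mt-Co2. How reads with more than one match were counted is not given in the sources used here, so levels and changes of these genes are uncertain.

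**Figure D2:**
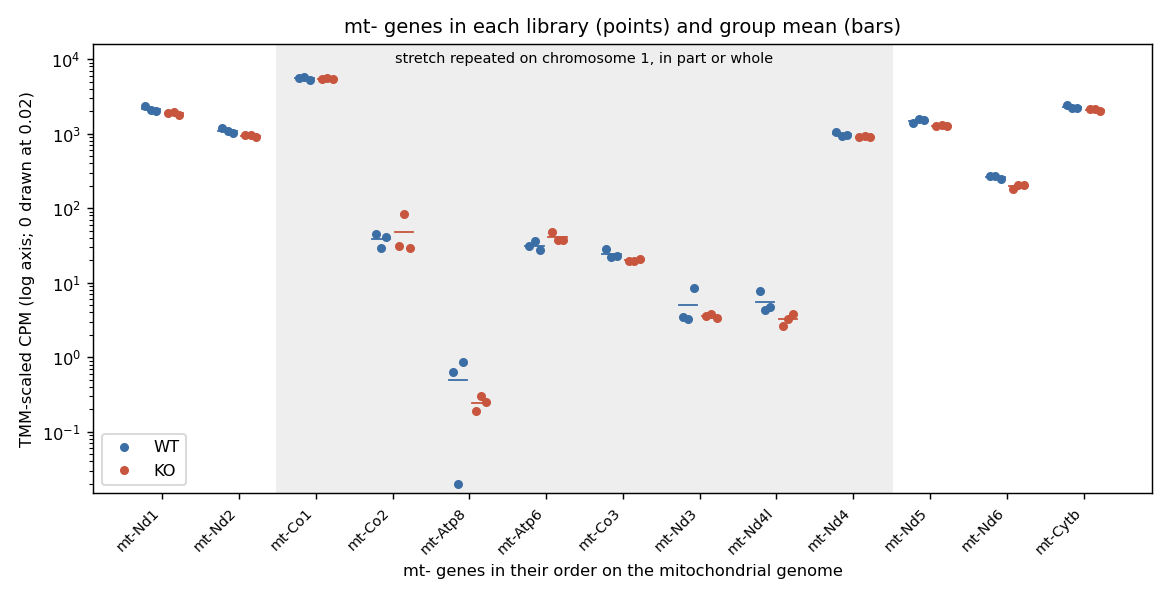
CPM (log axis) of the 13 mt- genes in their order on the mitochondrial genome, with a point for each of 3 WT and 3 KO libraries and a short bar for the mean. Genes in the grey band lie in the stretch repeated on chromosome 1 (7 aligned to an annotated copy, mt-Atp8 not aligned), and 6 of these 8 lie far below the rest.

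Within the stretch, mt-Atp6, a subunit of the ATP synthase proton channel, was at 31.3, 36.1 and 27.2 CPM in WT and at 47.4, 37.1 and 37.9 CPM in KO (log2 fold change 0.38 ± 0.09 SE, edgeR adjusted p = 0.00094). The genotypes did not overlap, with KO 2 and KO 3 just above WT 2. Added to its copy Gm10925, the gene was at 66.5, 74.7 and 58.9 CPM in WT and at 80.3, 75.9 and 75.1 CPM in KO, and the call was lost (0.21, edgeR adjusted p = 0.0758, an alternative added after the data were seen), as it was without WT 3 or KO 1. mt-Co2, which encodes the copper-binding subunit that receives electrons from cytochrome c, was at 45.2, 29.7 and 41.2 CPM in WT and at 30.7, 83.4 and 29.1 CPM in KO. KO 2 alone stood high, KO 1 was close to WT 2, the lowest WT library, and KO 3 just below it. It was called higher (0.30 ± 0.09 SE, edgeR adjusted p = 0.0122), but the direction turned without KO 2 (-0.37, adjusted p = 0.0216), the call was lost without WT 2, and DESeq2 gave an adjusted p of 0.835.

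mt-Nd4l was at 7.76, 4.28 and 4.78 CPM in WT and at 2.60, 3.25 and 3.81 CPM in KO, lower without overlap (-0.80 ± 0.21 SE, edgeR adjusted p = 0.00362). Summed with Gm10222 the call was lost (-0.34, edgeR adjusted p = 0.133), as it was without WT 1 or KO 1. mt-Nd3 was at 3.45, 3.28 and 8.53 CPM in WT and at 3.54, 3.79 and 3.37 CPM in KO, where WT 3 alone stood high and the test was not passed (-0.55 ± 0.21 SE, edgeR adjusted p = 0.0797). Without WT 3 its fold change turned to 0.09. Its copy Gm28438 held more counts, 36.4, 42.4 and 34.4 CPM in WT and 32.2, 31.7 and 21.0 CPM in KO, and the sum of both was called lower (-0.42, edgeR adjusted p = 0.000132). mt-Co3 was at 28.0, 22.5 and 23.2 CPM in WT and at 19.9, 19.4 and 21.2 CPM in KO (-0.28 ± 0.11 SE, edgeR adjusted p = 0.0799), and mt-Atp8 held 8, 0 and 16 counts in WT and 4, 5 and 4 in KO. mt-Nd4, the longest of the copied genes after mt-Co1, was at 1059, 947 and 971 CPM in WT and at 899, 931 and 899 CPM in KO, below WT without overlap but not called (-0.13 ± 0.06 SE, edgeR adjusted p = 0.262).

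Among nuclear genes, those lower in KO were Cox7a2l, Ndufaf5 and Atp5e. Cox7a2l, which encodes the factor that joins complexes III and IV into respiratory supercomplexes, was at 99.1, 73.9 and 81.1 CPM in WT 1 to 3 and at 59.8, 64.3 and 61.8 CPM in KO 1 to 3. All KO libraries lay below all WT libraries, and KO averaged 73.2% of WT (log2 fold change -0.45 ± 0.08 SE, edgeR adjusted p = 6.67e-07). Its relatives Cox7a2 and Cox7a1 did not differ in the same way: Cox7a2, the common subunit of that position, was at 51.0 to 60.6 CPM in WT and 51.0 to 55.2 CPM in KO (-0.04 ± 0.08 SE, edgeR adjusted p = 0.820), and the muscle isoform Cox7a1 held 3 to 10 counts in WT and 6 to 15 in KO. The difference between Cox7a2l and Cox7a2 was not tested. Which strain's allele of Cox7a2l each genotype carried was not tested either, and supercomplexes were not measured.

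Ndufaf5, a hydroxylase that modifies Ndufs7 during complex I assembly, was at 20.0, 14.5 and 17.1 CPM in WT and at 11.2, 12.5 and 11.2 CPM in KO. It fell without overlap to 67.7% of WT (-0.56 ± 0.13 SE, edgeR adjusted p = 0.000216). It lies on chromosome 2, 7.33 Mb from Mcm8, the only OXPHOS gene within 10 Mb of the deletion. Which strain that stretch came from in each genotype was not tested. Atp5e, the epsilon subunit of the ATP synthase central stalk, was at 48.9, 28.6 and 34.6 CPM in WT and at 28.6, 26.1 and 29.5 CPM in KO. KO 3 lay above WT 2, and the call (-0.41 ± 0.10 SE, edgeR adjusted p = 0.000524) was lost without WT 1 (-0.18, adjusted p = 0.263) and by DESeq2 (adjusted p = 0.0668). Cox7a2l and Ndufaf5, like mt-Nd6, were called in 15 of 17 other fits of a difference from 0, including DESeq2 and the omission of any one library. They were lost in both fits to log2 FPKM, which called no OXPHOS gene, and in a test against a change of 1.2-fold (glmTreat), which called only Ndufa12 and mt-Nd4l.

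The nuclear genes called higher were Uqcr11, Atp5k and Ndufa12. Uqcr11, a small subunit of complex III, was at 42.7, 26.2 and 40.5 CPM in WT and at 43.7, 44.7 and 46.2 CPM in KO. WT 2 stood low, and KO 1 was just above WT 1 (0.30 ± 0.09 SE, edgeR adjusted p = 0.0152). Atp5k, the e subunit of the ATP synthase membrane part that joins its dimers, was at 14.4, 11.0 and 16.3 CPM in WT and at 17.6, 18.9 and 18.2 CPM in KO, above WT without overlap (0.38 ± 0.12 SE, edgeR adjusted p = 0.0212). Both calls were lost without WT 2 (0.11 for Uqcr11 and 0.24 for Atp5k), without any one of the KO libraries and by DESeq2 (adjusted p = 0.198 and 0.116).

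Ndufa12, an accessory subunit of complex I, was at 8.62, 5.42 and 6.60 CPM in WT and at 11.9, 37.8 and 12.8 CPM in KO. KO 2 stood far above the other KO libraries, and KO 1 and KO 3 were also above WT (1.59 ± 0.13 SE, edgeR adjusted p = 4.46e-30, and 0.85 without KO 2). The pseudogene Ndufa12-ps on chromosome 5 held more counts than the gene itself in every library except KO 2. It was at 51.2, 33.9 and 46.3 CPM in WT and 38.0, 26.3 and 36.2 CPM in KO. It was lowest in KO 2, where Ndufa12 was highest. Their sum was 59.8, 39.3 and 52.9 CPM in WT and 49.8, 64.0 and 49.0 CPM in KO. The genotypes overlapped in this sum and the call was lost (0.10, edgeR adjusted p = 0.612, added after the data were seen), as it was by DESeq2 (adjusted p = 0.0553). The pseudogene transcript matched Ndufa12 at 400 of 402 bases with a longest identical run of 278 bases, and differed by A225G and T504C (positions counted from 1 in the GENCODE transcript of Ndufa12). The end of the coding sequence is shown for both because it holds T504C, 1 of the 2 differing bases, in capitals.
Ndufa12: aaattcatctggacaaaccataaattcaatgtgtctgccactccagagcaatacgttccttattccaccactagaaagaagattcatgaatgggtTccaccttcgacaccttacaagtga
Ndufa12-ps: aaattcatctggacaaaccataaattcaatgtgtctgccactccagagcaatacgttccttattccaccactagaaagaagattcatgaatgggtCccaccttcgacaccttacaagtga
The pseudogene covers 36.2% of the Ndufa12 transcript, and reads that lie within that part and cross neither base cannot be given to one of them, so the change of the sole OXPHOS gene past 2-fold is uncertain.

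**Figure D3:**
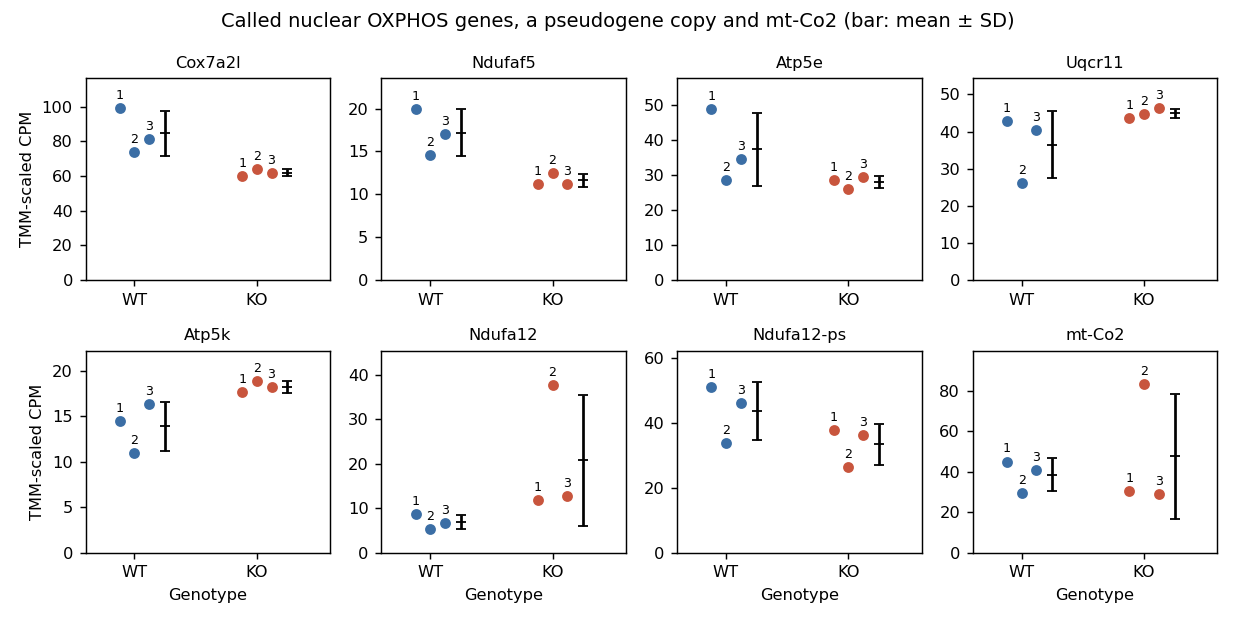
CPM in each library (points, numbered by replicate) with mean ± SD (n = 3 per genotype) for the 6 nuclear OXPHOS genes called, for Ndufa12-ps and for mt-Co2. Cox7a2l, Ndufaf5, Uqcr11, Atp5k and Ndufa12 separate the genotypes, Ndufa12 with KO 2 far above the other KO libraries. The higher mean of mt-Co2 in KO rests on KO 2.

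Promoter letters of the called nuclear genes were read from RefSeq (GRCm38.p6), as the 250 bases before the start in that table, for 77 of 98 nuclear OXPHOS genes. The core of the NRF1 motif, CGCATGCG (its own reverse complement), was present in 8 of these 77 windows (10.4%) and in 1.55% of all 32851 promoters. The ETS core CCGGAAG, bound by GABP among other factors, was present in 14 (18.2%) against 6.91% of all, and TATAAA in 7 (9.09%) against 12.4%. Both strands were searched, and overlap between hits was not counted. NRF1 and GABP are the classical activators of nuclear OXPHOS genes. Windows of Cox7a2l and Ndufaf5, the nuclear calls that held most widely, and of Atp5k and Uqcr11, called higher, are shown 5′ to 3′ on the gene's strand with motif matches in capitals.
Cox7a2l, chr17:83514334-83514583, minus strand: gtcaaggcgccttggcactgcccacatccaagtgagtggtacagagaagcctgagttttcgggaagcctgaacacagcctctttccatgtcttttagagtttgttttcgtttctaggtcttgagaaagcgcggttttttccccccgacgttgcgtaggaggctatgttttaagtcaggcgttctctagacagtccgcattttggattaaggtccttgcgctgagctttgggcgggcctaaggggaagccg
Ndufaf5, chr2:140170396-140170645, plus strand: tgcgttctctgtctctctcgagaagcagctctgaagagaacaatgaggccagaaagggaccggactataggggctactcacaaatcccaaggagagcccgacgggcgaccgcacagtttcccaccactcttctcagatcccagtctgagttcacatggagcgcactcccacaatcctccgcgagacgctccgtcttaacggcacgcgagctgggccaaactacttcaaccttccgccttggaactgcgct
Atp5k, chr5:108434400-108434649, minus strand: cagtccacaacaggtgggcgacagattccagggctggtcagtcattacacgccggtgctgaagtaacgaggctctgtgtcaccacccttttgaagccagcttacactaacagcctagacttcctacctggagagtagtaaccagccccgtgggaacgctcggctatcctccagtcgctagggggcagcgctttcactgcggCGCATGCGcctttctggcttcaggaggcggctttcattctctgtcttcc
Uqcr11, chr10:80406822-80407071, minus strand: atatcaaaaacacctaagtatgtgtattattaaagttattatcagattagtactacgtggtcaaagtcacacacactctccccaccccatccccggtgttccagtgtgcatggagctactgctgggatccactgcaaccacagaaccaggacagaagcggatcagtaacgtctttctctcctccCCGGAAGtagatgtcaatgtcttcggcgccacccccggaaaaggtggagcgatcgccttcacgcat
The NRF1 core was found in Atp5k and the ETS core in Uqcr11 and Atp5e. Neither these letters nor TATAAA were in the windows of Cox7a2l, Ndufaf5 and Ndufa12, which says nothing of the factors themselves. The RefSeq starts used for Cox7a2l and Ndufa12 lie inside the genes as GENCODE draws them, so promoters at the outer starts were not searched. The windows of Atp5k, Uqcr11 and Atp5e overlap the GENCODE gene at their 3′ end, that of Atp5k the most.

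None of 12 core nuclear subunits of complexes I to V passed the test by edgeR, DESeq2 or limma voom, beside 8.9% higher and 7.4% lower by edgeR over all genes passing filterByExpr. At an unadjusted p below 0.05 by edgeR there were 2, beside 29.8%. Without WT 1, 3 of the 12 were called. Sdha, the flavoprotein of complex II, was at 210 to 219 CPM in WT and 210 to 230 CPM in KO (0.04 ± 0.07 SE). Atp5b and Atp5a1, the beta and alpha subunits of the ATP synthase head, were the highest nuclear genes per length, at 306 ± 19.1 and 238 ± 16.7 SD FPKM in WT and 303 ± 4.17 and 238 ± 5.96 SD FPKM in KO (n = 3). Their log2 fold changes were -0.01 ± 0.06 SE for Atp5b and 0.00 ± 0.06 SE for Atp5a1. Uqcrfs1, the Rieske iron-sulfur protein of complex III, was at 89.3, 72.5 and 71.9 CPM in WT and at 69.7, 68.0 and 65.4 CPM in KO, without overlap but not called (-0.20 ± 0.08 SE, edgeR adjusted p = 0.108).

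Of the 7 nuclear core subunits of complex I, which bind its flavin and iron-sulfur clusters, 4 had a fold change above 0 and 3 below. None was called by edgeR, DESeq2 or limma voom, 2 had an unadjusted p below 0.05 by edgeR, with opposite signs, and 2 were called without WT 1. Ndufs7 was at 61.0, 48.0 and 58.1 CPM in WT and at 64.8, 67.5 and 62.3 CPM in KO (0.22 ± 0.08 SE, edgeR adjusted p = 0.0778). Ndufv2 was at 76.7, 65.2 and 65.6 CPM in WT and at 58.1, 61.5 and 59.5 CPM in KO (-0.21 ± 0.08 SE, edgeR adjusted p = 0.0886). Neither gene overlapped between genotypes.

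Of the 8 complex I assembly genes that the symbol rule took, Ndufaf5 was the one called, and 6 had a fold change below 0, with a median of -0.22. Ndufaf6 was at 9.25, 9.05 and 6.87 CPM in WT and at 6.37, 6.31 and 6.56 CPM in KO, without overlap (-0.38 ± 0.17 SE, edgeR adjusted p = 0.170). Ndufaf7, a methyltransferase needed for complex I assembly, was at 18.1, 15.8 and 20.0 CPM in WT and at 15.8, 14.9 and 14.6 CPM in KO (-0.25 ± 0.12 SE, edgeR adjusted p = 0.210). Ndufaf8, the partner of Ndufaf5, went the other way, at 7.995, 6.34 and 7.84 CPM in WT and 8.83, 10.3 and 8.31 CPM in KO (0.30 ± 0.16 SE, edgeR adjusted p = 0.292). Ndufaf1, Ndufaf2, Ndufaf3 and Ndufaf4 had log2 fold changes of -0.21, -0.24, 0.24 and -0.12, and none passed. With 1 library left out, Ndufaf1, Ndufaf2 and Ndufaf4 came as near to 0 as -0.09, -0.10 and -0.02. The 8 genes summed to 124.8, 99.86 and 107.1 CPM in WT and 95.3, 100.2 and 93.8 CPM in KO, so the genotypes overlapped in this sum.

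Complex II is wholly encoded in the nucleus. Its 4 genes, a number too small to set against the share called over all genes, include the tumour suppressors Sdhb, Sdhc and Sdhd and had fold changes from -0.11 to 0.04, with 0 at an unadjusted p below 0.05 by edgeR and 0 calls by edgeR, DESeq2 and limma voom. In complex III, 3 of 9 nuclear genes had an unadjusted p below 0.05, beside 29.8% of all genes passing filterByExpr, and Uqcr11 was called. In complex IV, 13 of 21 nuclear genes passed filterByExpr, with fold changes from -0.45 (Cox7a2l) to 0.18.

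Common and tissue isoforms differed widely in level. The common subunits Cox4i1, Cox6a1, Cox8a, Cox6b1 and Cox7b stood at 147 ± 23.2, 210 ± 38.1, 167 ± 26.8, 78.6 ± 10.9 and 75.4 ± 18.1 SD FPKM in WT (n = 3). The isoforms known from muscle, testis, lung or hypoxic cells were at or near 0. Cox8b held 3 counts in WT 3 and 0 in the other libraries, and Cox7b2 and Cox8c held 0 in all 6. Cox4i2 held 0, 3 and 1 counts in WT and 8, 4 and 1 in KO, Cox6a2 4, 7 and 5 against 6, 6 and 3, and Cox6b2 1, 3 and 3 against 7, 9 and 11. Ndufa4l2, which replaces Ndufa4 in hypoxia, held 1, 3 and 5 counts in WT and 6, 12 and 5 in KO. The 8 isoforms of this list summed to 1.25 to 1.35 CPM in WT and 1.69 to 2.22 CPM in KO without overlap, and scaled to depth Cox6b2 and Ndufa4l2 also lay above WT in all KO libraries. None of the 6 isoforms tested was called by edgeR, DESeq2 or limma voom, with 1 (Cox6b2) at an unadjusted p below 0.05 by edgeR. The 10 skeletal muscle markers summed to 4.21 to 6.11 CPM in WT and 4.34 to 5.71 CPM in KO, with Myod1 and Ckm at 0.

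The c ring of ATP synthase is built from one mature peptide encoded by 3 genes. Per length, Atp5g3 stood highest at 89.8 ± 10.2 SD FPKM in WT, Atp5g2 at 60.8 ± 12.4 and Atp5g1 at 14.7 ± 1.71 (n = 3), in the same order in KO (88.0 ± 5.60, 69.4 ± 4.15 and 14.6 ± 0.224). Their fold changes were -0.03, 0.19 and -0.01, and none was called (Atp5g2 edgeR adjusted p = 0.0904). The 3 X-linked genes, Ndufa1, Ndufb11 and Cox7b, were not called either, with fold changes of -0.05, 0.05 and 0.00, while X-linked Xist differed between genotypes as given above. For Ndufa1 the values were 23.4, 14.4 and 15.6 CPM in WT and 18.7, 17.1 and 15.2 CPM in KO.

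WT libraries differed from each other in nuclear OXPHOS genes. Among the 88 nuclear OXPHOS genes that passed filterByExpr, WT 1 was the highest WT library in 83 and WT 2 the lowest in 75, whereas over all genes passing the filter these shares were 37.5% and 34.9%. Their summed level was 8260, 6655 and 7286 CPM in WT 1 to 3 and 7369, 7438 and 7412 CPM in KO 1 to 3, so all KO libraries lay between WT 2 and WT 1. The median coefficient of variation was 15.6% in WT and 4.69% in KO, larger in WT for 82 of 88 genes. Over all genes passing the filter it was 10.3% and 6.06%. The range of the sum within WT was wider than that across KO.

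**Figure D4:**
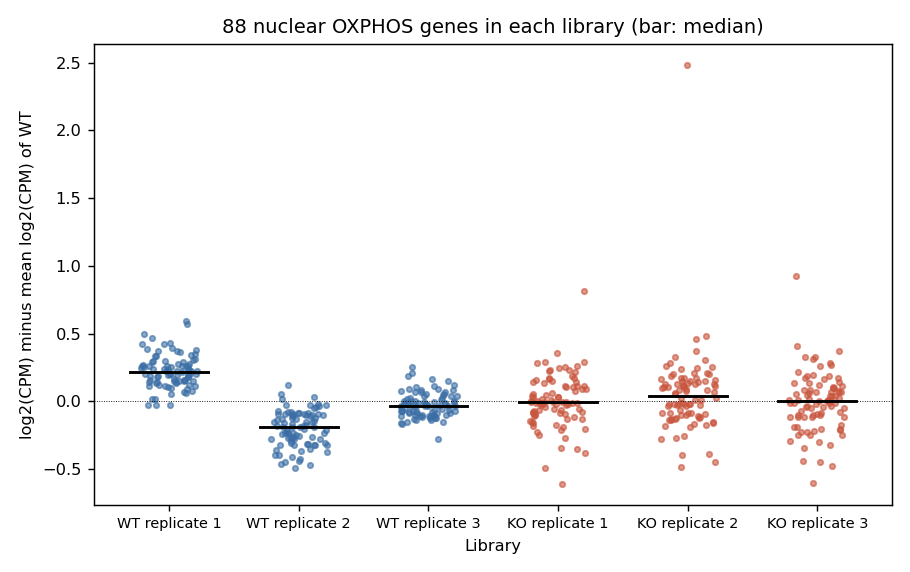
log2(CPM) of 88 nuclear OXPHOS genes in each library minus the gene's WT mean, 1 point per gene, with the median as a black bar. The medians are 0.22, -0.19 and -0.03 in WT 1 to 3 and -0.01, 0.04 and 0.00 in KO 1 to 3, and the highest KO 2 point is Ndufa12.

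Other short or ribosomal genes shared part of this spread. The median log2 ratio of WT 1 to WT 2 was 0.40 for the nuclear OXPHOS genes, 0.46 for 77 cytosolic ribosomal protein genes and 0.27 for 77 mitochondrial ribosomal protein genes. Over other genes it fell with the length of the gene, from 0.25 for those under 1000 bases to -0.09 for those of 4000 bases or more, and among OXPHOS genes from 0.53 for those under 1000 bases to 0.18 for those of 4000 or more. The part of gene length or of RNA quality in these values was not tested further. Without WT 1, 26 nuclear genes were called higher and 2 lower, the higher ones including Cox7c, Cox8a, Ndufs7 and Atp5g2, beside 11.1% higher and 11.1% lower over all genes passing filterByExpr. Without WT 2, 1 was called higher and 8 lower, beside 8.51% and 6.98%. Cox7a2l and Ndufaf5 were lower and Ndufa12 higher in both of these fits.

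The other genes of the pathway are given beside the 8.9% higher and 7.4% lower over all genes passing filterByExpr. Cycs, the cytochrome c that links complexes III and IV, was at 88.3, 65.7 and 70.6 CPM in WT and at 80.3, 84.5 and 84.1 CPM in KO, and was not called (0.15 ± 0.08 SE, edgeR adjusted p = 0.297), and testis Cyct held 1 count in KO 2 alone. None of 45 assembly factors outside the symbol rule was called by edgeR, DESeq2 or limma voom, with 8 at an unadjusted p below 0.05. Of 10 nuclear regulators, 1 was lower, Myc (114, 111 and 105.6 CPM in WT, 89.3, 85.8 and 89.3 CPM in KO, -0.32 ± 0.08 SE, edgeR adjusted p = 0.000547). Nrf1, an activator of OXPHOS promoters, was at 55.8 to 61.4 CPM in WT and 51.5 to 58.3 CPM in KO and was not called. Gabpa, which encodes a GABP subunit, was at 118, 120 and 119 CPM in WT and 103, 107 and 102 CPM in KO. It lay below WT without overlap but was not called (-0.19 ± 0.07 SE, edgeR adjusted p = 0.0975), and Gabpb1 overlapped (-0.02). limma voom called 2 of the 10 regulators, beside 14.5% of all genes passing filterByExpr.

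Of 21 genes for the replication and transcription of mitochondrial DNA, 1 was lower. Tk2, the mitochondrial thymidine kinase that supplies nucleotides for that DNA, was at 16.4, 16.3 and 14.7 CPM in WT and at 11.7, 11.9 and 11.7 CPM in KO, without overlap (-0.42 ± 0.13 SE, edgeR adjusted p = 0.0148). DESeq2 called none of the 21. Tfam, which packages mitochondrial DNA, and Polrmt, its RNA polymerase, had fold changes of -0.07 and 0.19 and were not called. Of 17 citric acid cycle genes 1 was lower (Pdha1, -0.22), as was 1 of 17 genes of mitochondrial membranes and import (Hspa9, -0.22).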

How the data were processed

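Gene-level counts and FPKM values were deposited for 6 libraries. Per the labels, libraries were made from total RNA with the NEBNext Ultra RNA kit, and the submitters' processing notes name CASAVA 1.8, fastp, HISAT2 2.0.5, featureCounts 1.5.0-p3, DESeq2 1.20.0 and the build GRCm38 (mm10), whereas the methods name an Ensembl assembly of a later release, so no printed coordinate is from the deposited table. How each setting was used, multi-mapped reads and strand included, is not given in the sources used here. The counts deposited by the authors are whole reads per gene without normalisation, and the FPKM deposited by the authors divide them by gene length and depth. No per-sample column was left unmapped.

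The 26898 genes with FPKM above 0 in any library were fitted with edgeR 4.0.16 (TMM, quasi-likelihood F test, all 6 libraries, genotype only, R 4.3.3), with Benjamini-Hochberg adjustment over all of them and calls at 0.05. The prior degrees of freedom were estimated as infinite, so all genes of a given level shared one spread and a gene with 1 outlying library could be called. On simulated counts for this comparison (25684 genes), edgeR recovered 68 of 100 changes of 1.5-fold and 78 of 100 of 2-fold. It made 4 false calls there, and the rate of calls resting on 1 outlying library was not tested. Alternatives were DESeq2 1.42.0, limma 3.58.1 (voom, and log2 of FPKM plus 1 or 0.1), a robust fit, glmTreat against 1.2-fold, RLE scaling, filters, length offsets, a block and each library left out, and, added after the data were seen, summed copies. Transcripts came from GENCODE M21 and were aligned with Biopython 1.88. Same-numbered WT and KO libraries deviated with correlations of -0.03, -0.02 and 0.04 over 14332 genes, so numbers were not taken as pairs. The members and gene lists were chosen with earlier results of these data known. Genes named were all mt- genes, called members of at least 1 CPM without overlap (up to 12 in each direction), the core, isoform, c subunit and assembly lists, X-linked members and those within 10 Mb of Mcm8, Mcm8, and called cytochrome c, regulator and mtDNA genes. Other genes named, Atp5e included, were chosen after their values were seen. One gene that the rule names is not reported here by name.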

Additional observations from a re-analysis of the deposited data

How the results depend on the processing

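The main test called 5 OXPHOS genes higher and 8 lower, 7 of them mitochondrial, with 1 past 2-fold. DESeq2 called 1 higher, 5 lower, 4 mitochondrial and 0 past 2-fold. limma voom, filterByExpr and FPKM above 0 in every library each called 2 higher, 5 lower and 4 mitochondrial. Both log2(FPKM) fits called 0. The robust fit called 3 higher and 0 past 2-fold, glmTreat at 1.2-fold 1 higher and 1 lower, and summed copies, added after the data were seen, 2 higher and 0 past 2-fold. Gene length offsets gave 16 lower, with the median of all genes passing filterByExpr shifted by -0.05. Leaving out 1 library gave 2 to 28 higher (28 without WT 1), 5 to 14 lower (14 without WT 2), 3 to 8 mitochondrial and 0 to 1 past 2-fold. RLE scaling moved none of these counts. The cause of each change was not tested.

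By complex, calls were 1 (nuclear complex I), 5 (mitochondrial complex I), 1 (assembly), 0 (II), 1 and 0 (III, nuclear and mitochondrial), 1 and 1 (IV) and 2 and 1 (V). DESeq2 gave 3 for mitochondrial complex I and 0 for nuclear I, III and V and mitochondrial IV. voom and both filters gave 3 for mitochondrial complex I and 0 for nuclear III and V and mitochondrial IV. The robust fit and summed copies gave 0 for nuclear I and mitochondrial IV, and summed copies 0 for mitochondrial V. Length offsets gave 3 for nuclear I, 3 for nuclear III, 1 for mitochondrial III and 2 for mitochondrial IV. Leaving out 1 library gave 1 to 11 for nuclear I, 2 to 5 for mitochondrial I, 0 to 3 and 0 to 1 for III, 1 to 9 for nuclear IV, and 1 to 4 and 0 to 1 for V.

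With the replicate block, 12 OXPHOS genes were called, the call of mt-Co2 being lost (0 in mitochondrial complex IV), and no WT library correlated best with its own number except WT 3 (0.04), so the numbers were not taken as pairs. The median of nuclear genes ranged from -0.08 to 0.13 and that of mitochondrial genes from -0.26 to -0.18 with 1 library left out.

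Genes other than mt-Co2 that changed sign had no call in the main test. With length offsets Atp5a1, Sdha and Sdhb were at -0.0484, -0.0062 and -0.0469. With voom Atp5g1, Ndufa1 and Cox7b were at 0.0016, 0.0064 and 0.0329. Cox7b was at 0.0032 with filterByExpr, 0.0007 with FPKM above 0 in every library, 0.0191 and 0.0196 in the log2(FPKM) fits and 0.0167 with the block. mt-Atp8 was at 0.21 in log2(FPKM + 0.1). With 1 library left out the ranges were -0.0434 to 0.0546 (Atp5a1), -0.0603 to 0.0271 (Atp5b), -0.096 to 0.0612 (Atp5g1), -0.0739 to 0.0656 (Atp5g3), -0.0002 to 0.2219 (Cox4i1), -0.148 to 0.0349 (Cox5a), -0.0085 to 0.2372 (Cox6a1), -0.17 to 0.74 (Cox7a1), -0.0967 to 0.0294 (Cox7a2), -0.12 to 0.20 (Cox7b), -0.17 to 0.19 (Ndufa1), -0.0173 to 0.2083 (Ndufa4), -0.0103 to 0.1701 (Ndufb11), -0.0475 to 0.1175 (Sdhb), -0.047 to 0.0107 (mt-Co1), -0.7928 to 0.0852 (mt-Nd3) and -0.37 to 0.56 (mt-Co2).

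Of 1191 values of single genes under the alternatives, 995 kept direction and side of the threshold, 129 lost the call, 25 gained one and 42 changed sign. With 3 libraries a genotype, the smallest difference called among nuclear OXPHOS genes was that of Uqcr11 (0.30).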

Other observations

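Genes around the respiratory chain that the symbol rule did not take gave a few further calls. Coq2, which attaches the side chain of coenzyme Q, was at 21.3, 23.9 and 22.2 CPM in WT 1 to 3 and at 35.6, 34.0 and 33.9 CPM in KO 1 to 3, above WT without overlap (log2 fold change 0.62 ± 0.10 SE, edgeR adjusted p = 3.13e-08). Coq8b, a kinase-like protein of the same pathway, was at 8.59 to 9.01 CPM in WT and 10.8 to 12.1 CPM in KO (0.41 ± 0.14 SE, edgeR adjusted p = 0.0475). They were the 2 called of 13 coenzyme Q genes, beside 8.9% higher and 7.4% lower over all genes passing filterByExpr. DESeq2 called 1 of 13, beside 12.1% of all such genes in either direction.

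Of 77 mitochondrial ribosomal protein genes tested, 3 were lower and none higher, beside 7.4% lower and 8.9% higher over all genes passing filterByExpr. Mrps10 was at 43.7, 39.0 and 44.7 CPM in WT and at 25.7, 23.0 and 25.7 CPM in KO (-0.78 ± 0.10 SE, edgeR adjusted p = 4.14e-14). Mrps6 was at 53.7, 44.3 and 44.7 CPM in WT and at 33.7, 31.0 and 30.7 CPM in KO (-0.57 ± 0.09 SE, edgeR adjusted p = 1.41e-08), and Mrps30 at 33.9 to 36.6 CPM and 28.5 to 29.7 CPM (-0.27 ± 0.10 SE, edgeR adjusted p = 0.0492). Their summed level, 2354 to 2847 CPM in WT and 2507 to 2523 CPM in KO, overlapped as that of the nuclear OXPHOS genes did.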
